A study of Homo sapiens with 2 samples.

Results

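Cadherins and protocadherins were followed as a gene family across the cell types of human cerebral organoids. The members were chosen by gene symbol, as every CDH or PCDH gene with a number and every gene of the PCDHA, PCDHB and PCDHG clusters, which gave 89 of the 62704 genes counted. They were 5 type I cadherins, 13 type II cadherins, 5 other CDH genes, 12 non-clustered protocadherins, 16 PCDHA, 16 PCDHB and 22 PCDHG genes. No Y-linked gene was used, and because PCDH11X has a near-identical copy elsewhere in the genome, its counts are uncertain.

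The organoids came from the human embryonic stem cell line H9 and their RNA was read by split-seq. That method labels the RNA inside fixed cells or nuclei in successive rounds of wells, and the combination of wells stands for 1 cell or nucleus. The library of cells pooled standard cerebral organoids (CO) at days 45, 55 and 70, organoids dissociated at day 45 and reaggregated (DISS) at days 48, 55 and 70, and CO freed of Matrigel and embedded on day 13 in 3% agarose (CONS) at day 55. The library of nuclei held day 45 CO, taken as whole organoids and as single-cell suspensions. No barcode carries its condition, day or organoid, so each library was 1 sample, conditions were not compared, and no p-values are given.

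A barcode was kept when it held over 500 genes and over 1000 transcripts, of which no more than 20% were mitochondrial. This left 20178 cells with a median of 2615 transcripts and 14228 nuclei with a median of 3890. Among the cells, 407 barcodes above 50000 transcripts held 28.5% of all kept transcripts. The kept barcodes of the 2 libraries shared 533 well combinations, 3.28% of those of the cells and 3.92% of those of the nuclei, and 2642 combinations occurred in more than 1 of the 8 sub-libraries of the cells. First-round wells (48 for cells, 12 for nuclei) hold samples of unknown condition. The study's methods describe fewer samples than wells, so several wells can hold the same sample, and counts of wells describe the spread between wells and are not counts of independent samples. Members named below that were chosen only after their values were seen are listed with the naming rule in the account of the processing. Levels are summed counts per 10000 transcripts, and their 95% exact Poisson intervals cover counting error only.

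Classical cadherins hold cells together through calcium-dependent binding of their extracellular repeats, mostly to the same cadherin on the next cell, and their tails bind beta-catenin and p120-catenin, through which alpha-catenin links them to actin. In the developing brain, combinations of type I and type II cadherins mark nuclei, layers and axon tracts, and N-cadherin keeps the apical junctions of radial glia. Non-clustered protocadherins act in adhesion, migration and synapse formation. The clustered protocadherins form 3 gene arrays in which each isoform has its own promoter, neurons switch on a few isoforms each by a largely random promoter choice, and matching isoforms on sister branches lead to self-avoidance.

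Clusters were built without any gene of the cadherin superfamily and named from marker lists. 5 classes were compared in both libraries. Progenitor-like barcodes (radial glia-like and dividing clusters) numbered 5668 cells and 5213 nuclei, intermediate progenitor (IPC)-like 1112 and 553, excitatory neuron-like 1776 and 1789, choroid plexus-like 1405 and 916, and Cajal-Retzius-like 462 and 102. Between progenitor-like and neuron-like nuclei the defining markers followed the names. SOX2 stood at 1.25 counts per 10000 in progenitor-like and 0.0956 in neuron-like nuclei and NEUROD6 at 0.0457 and 1.37. In the cells SOX2 stood at 2.86 and 0.360 and NEUROD6 at 0.371 and 2.39, at median depths of 2830 and 7218. Among the dividing clusters of the cells, that led by KIF20A, NEUROD4 and EOMES had the intermediate progenitor list next. That led by ASPM had the excitatory neuron list next, with 88.6% from 1 well. The largest had a median depth of 1451 and did not meet the radial glia list, with 39.3% from 1 well. The part of these clusters in the ratios was not tested. In the Cajal-Retzius-like cells, whose median depth was 18320, SOX2 stood at 2.66, close to the 2.86 of progenitor-like cells, so that class goes in part against its name in the cells. The IPC-like cells were led by EBF2, NHLH1, EOMES and CNTN2 and the IPC-like nuclei by EOMES, PHLDB2 and DLL1. IPC-like cells held NEUROD6 at 2.41, as the neuron-like cells did (2.39), and the excitatory neuron list at 15.1 against 5.596 for the intermediate progenitor list, so that class too goes in part against its name in the cells. IPC-like nuclei held the radial glia list at 18.4 and the dividing list at 10.1 against 2.31 for the intermediate progenitor list, so the IPC-like classes of the 2 libraries are unlike. From the level of TTR outside the choroid plexus-like class, background RNA made up at most 30.9 to 56.1% of the transcripts of a class in the cells and at most 11.8 to 16.4% in the nuclei. Unnamed clusters held 42.8% of the kept cells.

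In the cells, 88 members had at least 1 count and 85 at least 50, and in the nuclei 87 and 70. PCDHA14, annotated as a pseudogene, had no count in either library, and PCDH20 had 1 count in the cells. Raw counts were highest for CDH4 in both libraries. Scaled to gene length, CDH2 stood above CDH4, with 2.11 counts per 10000 per 100 kb of gene in the cells and 2.55 in the nuclei, against 0.871 and 1.85 for CDH4. CDH24 stood at 1.02 and 1.07 on that scale. The short single-exon PCDHB genes reached higher values, up to 4.25 for PCDHB2 in the cells.

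Neuron-like and progenitor-like barcodes were compared first. Of the 70 members with at least 50 counts in both libraries, 66 (94.3%) lay on the same side of 1 in both, against 80.1% of 19513 genes. In both libraries, 19 members were at least 2-fold higher in neuron-like barcodes (7.03% of all genes) and 7 at least 2-fold higher in progenitor-like barcodes (8.65% of all genes). The 19 were CDH3, CDH6, CDH7, CDH11, CDH13, CDH18, CDH22, PCDH1, PCDH8, PCDH15, PCDHA12, PCDHA13, PCDHAC1 and 6 consecutively numbered PCDHB genes, PCDHB9 to PCDHB14. The 7 were CDH4, CDH8, CDH12, CDH20, CDH23, PCDH11X and PCDH18. Both counts depended on the settings and ran from 10 to 25 and from 4 to 8 over 11 alternatives. Wherever their ratio could be computed, CDH6, CDH7, CDH11, PCDH1, PCDH8, PCDHAC1 and PCDHB13 of the 19 and CDH4, CDH20, CDH23 and PCDH18 of the 7 stayed past 2-fold in both libraries. The other 12 and 3 fell short under at least 1 alternative, among them PCDHA12, PCDH15, PCDHB10 and PCDHB11 under 7 of the 11. Taken alone, the cells gave 23 of 85 members at least 2-fold higher in neurons (9.58% of all genes) and 7 in progenitors (9.45%), and the nuclei 32 of 70 (11.9%) and 8 (17.8%). The shares on the progenitor side were near or below those of all genes. The 23 of the cells depended on the settings, with 11 when the highest Scrublet scores were left out, 12 at resolution 0.5 and 46 with TTR-traced background taken out. The share of all genes past 2-fold was computed at the main setting only, so the counts under alternatives cannot be set against it. The median neuron to progenitor ratio of the members was 1.52 in the cells and 1.88 in the nuclei, against 1.02 and 0.884 over all genes. The ratio lay further from 1 in the nuclei for 49 of the 70 members (70%), as it did for 71.8% of all genes.

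**Figure D1:**
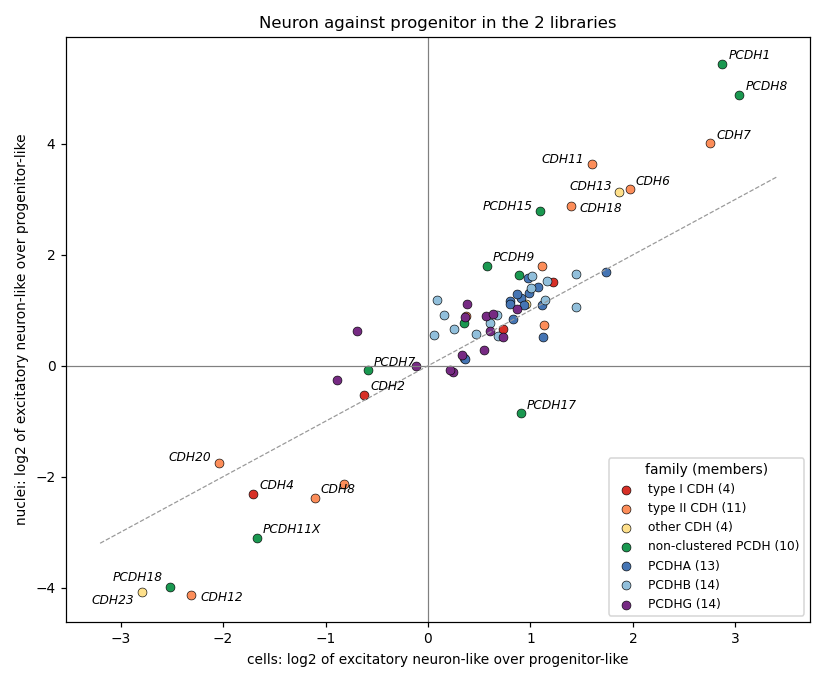
Log2 of the excitatory neuron-like over the progenitor-like level of each of the 70 members with at least 50 counts in both libraries, cells on the horizontal and nuclei on the vertical axis, coloured by family. All but 4 members lie at lower left or upper right, and most lie further from 0 than the dashed line of equal values.

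The summed level of the family ran the other way from this count. All members together stood at 37.9 counts per 10000 (95% interval 37.7 to 38.13) in progenitor-like cells and 26.1 (25.8 to 26.3) in neuron-like cells, and at 55.0 (54.7 to 55.3) and 31.9 (31.5 to 32.3) in the nuclei. Type I cadherins went from 26.9 to 9.42 and type II cadherins from 11.6 to 3.64 between progenitor-like and neuron-like nuclei, while PCDHA went from 1.86 to 4.43, PCDHB from 0.609 to 1.27 and PCDHG from 1.95 to 3.51. CDH4 and CDH12 carried most of the difference in the cadherin sums, at 19.4 and 3.92 and at 8.39 and 0.477, whereas 7 of 11 type II members were higher in neuron-like nuclei, with a median ratio of 1.86. The values of the cells had the same directions, 16.4 and 7.60 for type I, 7.74 and 3.95 for type II, and 1.78 and 3.31 for PCDHA.

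Of the type I cadherins, CDH4 (R-cadherin, first described in retina; ENSG00000179242, plus strand of chr20:61252261-61940617, GRCh38) stood at 19.4 counts per 10000 (19.3 to 19.6) in progenitor-like, 19.6 in IPC-like, 3.92 (3.78 to 4.06) in neuron-like, 5.17 in choroid plexus-like and 18.8 in Cajal-Retzius-like nuclei. Across the 12 wells of the nuclei its progenitor-like level ran from 14.3 over a median of 20.8 to 32.6 and its neuron-like level from 2.41 over 4.21 to 5.57. Every well was therefore higher in progenitor-like nuclei, and the ranges did not overlap. In the cells the levels were 9.88, 5.98, 3.03, 2.65 and 7.33 in the same order of classes, and in the 22 wells with at least 20 barcodes of both classes the ranges again did not overlap (5.38 to 17.5 and 0.754 to 5.00). After each barcode was thinned to 1000 transcripts, CDH4 was detected in 80.3% of progenitor-like (4187 of 5213) and 31.8% of neuron-like nuclei (569 of 1789), and in 25.3% of choroid plexus-like nuclei. Without thinning these shares were 95.6%, 60.4% and 51.3%, at median depths of 3544, 3755 and 6920.

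CDH2 (N-cadherin, the main cadherin of neuroepithelial junctions) varied less, from 7.36 in progenitor-like over 5.12 in neuron-like to 3.46 in Cajal-Retzius-like nuclei. It was higher in progenitor-like than in neuron-like barcodes in 12 of 12 wells of the nuclei and in 22 of 22 of the cells, by less than 2-fold, and the ranges overlapped. CDH3 (P-cadherin) went the other way, from 0.128 in progenitor-like to 0.364 in neuron-like nuclei and from 0.196 to 0.457 in cells. CDH1, the cadherin of epithelia, and CDH15, that of muscle, were near the limit of counting, with 163 and 10 counts in all nuclei.

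The type II cadherins held opposite patterns within 1 subfamily. CDH12 (ENSG00000154162, minus strand of chr5:21750673-22853344) stood at 8.39 in progenitor-like (8.27 to 8.51), 3.19 in IPC-like, 0.477 in neuron-like (0.430 to 0.527), 10.3 in choroid plexus-like and 3.86 in Cajal-Retzius-like nuclei. Its progenitor-like levels in the 12 wells, 4.94 to 14.5 with a median of 6.67, lay apart from its neuron-like levels, 0.261 to 1.02 with a median of 0.434. CDH20 followed the same direction at 1.91 and 0.569, with well ranges of 0.926 to 3.11 and 0.246 to 0.741. CDH8 stood at 0.342 in progenitor-like and 0.0654 in neuron-like nuclei and CDH10 at 0.580 and 0.132, both higher in progenitor-like nuclei in 12 of 12 wells with ranges that overlapped. In the cells CDH8 and CDH10 were higher in progenitor-like barcodes in 19 and 17 of 22 wells, and CDH10 fell short of 2-fold, at 0.361 and 0.205. In the nuclei, CDH4 and these 4 genes were all lower in neuron-like than in progenitor-like barcodes and differed in the other classes. CDH12 stayed high in choroid plexus-like nuclei, where CDH20 was at 0.455, and CDH8 stood at 0.940 in IPC-like nuclei and 0.269 in the unlike IPC-like cells. CDH8 was as high in a hem-like cluster and an unnamed cluster of the nuclei, at 0.956 and 0.942.

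CDH7, CDH11, CDH6 and CDH18 were type II cadherins that were higher in neuron-like than in progenitor-like barcodes. CDH11, CDH6 and CDH18 were higher still in choroid plexus-like nuclei, at 1.11, 0.871 and 0.971. CDH7 (ENSG00000081138, plus strand of chr18:65750252-65890337) went from 0.0378 (0.0302 to 0.0467) in progenitor-like to 0.610 (0.557 to 0.667) in neuron-like nuclei, with well ranges of 0.0210 to 0.0935 and 0.176 to 1.07 that did not overlap. In the cells it went from 0.102 to 0.688 and was higher in neuron-like barcodes in 22 of 22 wells. CDH11 (OB-cadherin) went from 0.0404 to 0.501 in the nuclei, again without overlap between 12 wells (0 to 0.0867 and 0.284 to 0.678), and from 0.111 to 0.336 in the cells. CDH6 stood at 0.0268 and 0.243 and CDH18 at 0.102 and 0.746 in progenitor-like and neuron-like nuclei, higher in neurons in 12 and 11 of 12 wells. In the cells CDH11, CDH6 and CDH18 were higher in neurons in 18, 20 and 15 of 22 wells. CDH22, at 0.0229 and 0.0793, was higher in neurons in 9 of 12 wells. In neuron-like nuclei none of these 5 genes reached the level that CDH12 or CDH20 had in progenitor-like nuclei.

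Among the other CDH genes, CDH23, a partner of PCDH15 in the tip links of hair cells, was the most strongly reduced in neurons. It stood at 5.22 (5.13 to 5.32) in progenitor-like, 3.66 in IPC-like and 0.308 (0.271 to 0.349) in neuron-like nuclei, with well ranges of 3.85 to 7.47 and 0.133 to 0.635, and at 3.85, 1.17 and 0.555 in the cells. PCDH15 itself went the opposite way, from 0.121 to 0.839 in the nuclei without overlap of the 12 wells (0.0700 to 0.234 and 0.316 to 1.54), and from 0.281 to 0.5999 in the cells. The partners of the hair cell tip link therefore lay on opposite sides of the neuron to progenitor comparison. CDH13 (T-cadherin, which is anchored by lipid and has no cytoplasmic tail) went from 0.129 to 1.13 in the nuclei and from 0.250 to 0.915 in the cells. With another seed of the clustering, the log2 ratio of CDH13 in the nuclei was 0.18 in place of 3.14, and the 2 neuron-like clusters of the nuclei differ in it, as given below.

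The non-clustered protocadherins showed the widest neuronal ratio of the family. PCDH1 had 14 counts in progenitor-like and 213 in neuron-like nuclei, or 0.00615 (0.00337 to 0.0103) and 0.268 (0.233 to 0.307) per 10000. Its levels in the 12 wells, 0 to 0.0537 and 0.200 to 0.494, did not overlap, and in the cells it went from 0.0298 to 0.219 and was higher in neurons in 22 of 22 wells. PCDH8, an activity-regulated protocadherin, had 3 counts in progenitor-like and 31 in neuron-like nuclei, and 47 and 215 in the cells. PCDH9 (ENSG00000184226, minus strand of chr13:66302834-67230445) stood at 1.66 (1.61 to 1.71) in progenitor-like, 5.10 in IPC-like, 5.77 (5.604 to 5.94) in neuron-like, 1.71 in choroid plexus-like and 11.9 in Cajal-Retzius-like nuclei. Its 12 wells ran from 0.866 to 2.52 and from 2.79 to 8.41 without overlap. In the cells PCDH9 stood at 1.88 in progenitor-like, 9.61 in IPC-like, 4.19 in Cajal-Retzius-like and 2.80 in neuron-like barcodes, a neuron to progenitor ratio of 1.49, short of 2-fold. The IPC-like and Cajal-Retzius-like cells carry markers against their names, as given above.

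On the progenitor side stood PCDH11X and PCDH18. PCDH11X was at 4.10 in progenitor-like and 0.478 in neuron-like nuclei, with well ranges of 1.65 to 5.57 and 0.141 to 1.27 that did not overlap, but at 5.95 in Cajal-Retzius-like and 1.98 in choroid plexus-like nuclei. PCDH18 was at 0.139 and 0.00881, from 317 and 7 counts. PCDH19, the gene of an X-linked epilepsy, differed by less than 2-fold, at 0.197 and 0.337, higher in neurons in 11 of 12 wells. PCDH17 was the only member whose direction differed between the libraries beyond counting error, at 0.147 and 0.275 in progenitor-like and neuron-like cells and 0.196 and 0.108 in the nuclei. In the nuclei its progenitor-like levels ran from 0.00700 to 0.553 between wells and it was higher in neurons in 8 of 12 wells although the pooled level was lower there. The progenitor-like clusters of the nuclei ran from 0.0412 to 0.506, the highest being the EGR1 and FOS cluster described below, and under 4 alternative settings the log2 ratio of the nuclei was positive, up to 0.91.

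**Figure D2:**
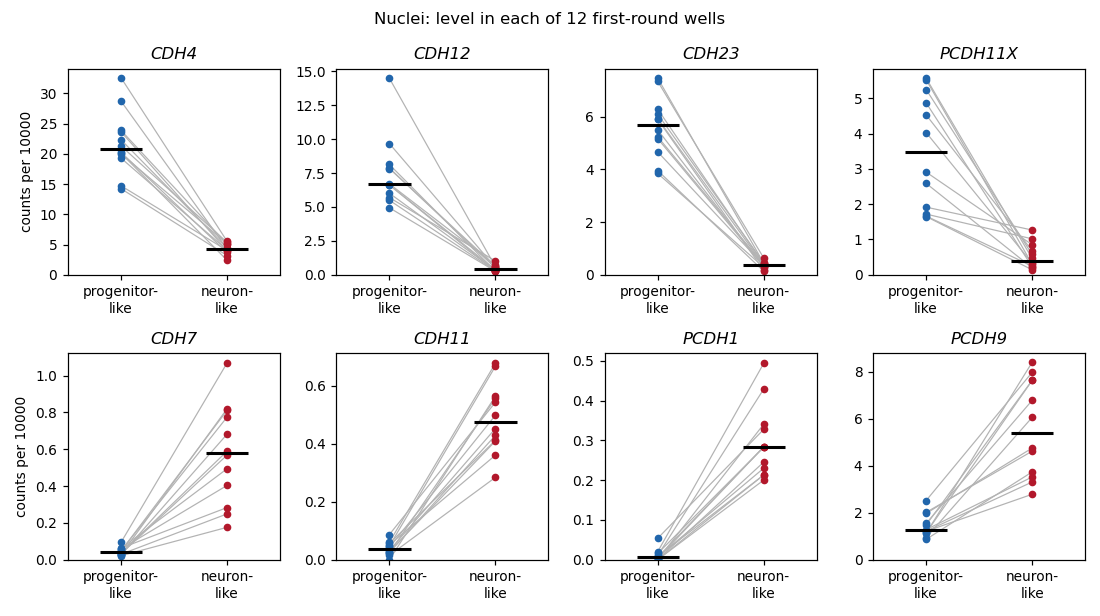
Level in counts per 10000 of 8 members in progenitor-like (blue) and excitatory neuron-like (red) nuclei of each of the 12 first-round wells, joined by grey lines, with the median of the wells as a black bar. For CDH4, CDH12, CDH23 and PCDH11X every well is higher in progenitor-like nuclei, for CDH7, CDH11, PCDH1 and PCDH9 every well is higher in neuron-like nuclei, and no range overlaps. The 8 were picked for display and do not stand for all members, since the ranges of CDH8 and CDH10 overlapped. The share of all genes without overlap was not computed.

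Within the progenitor-like class, the most abundant members differed by less than 2-fold between radial glia-like and dividing nuclei. CDH4 stood at 17.8 in radial glia-like and 21.0 in dividing nuclei, CDH2 at 7.32 and 7.39, CDH23 at 6.09 and 4.40 and PCDH11X at 4.93 and 3.31. CDH12 stood at 6.78 and 9.90 in the nuclei and the other way, at 6.48 and 3.84, in the cells. Of 69 members, 9 were at least 2-fold higher in radial glia-like nuclei (9.39% of all genes), among them CDH8 (0.468 and 0.222), PCDH17 (0.284 and 0.113) and PCDH18 (0.191 and 0.0905), and CDH17, with 51 counts in all nuclei, was past 2-fold in dividing nuclei (4% of all genes). In the cells the counts were 5 of 83 (5.47%) and 0 (3.83%), and only PCDH11X among those 5 was abundant, at 2.72 in radial glia-like and 1.22 in dividing cells. The 9 of 69 in the nuclei lay somewhat above the share of all genes and the other counts near or below it.

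A member was called class-specific where its highest class was at least 2-fold above the next. That held for 9 of 85 members in the cells (9.88% of all genes) and 9 of 70 in the nuclei (12.1% of all genes), a share close to that of all genes, and for 2 members with the same class in both libraries (6.21% of all genes), CDH6 and PCDH7. Both were highest in the choroid plexus-like class, the epithelium that makes cerebrospinal fluid. The call holds among the 5 classes compared, since in the hem-like clusters of the nuclei, outside that comparison, PCDH7 (4.62 and 3.59) and in 1 of them CDH6 (1.17) stood above the choroid plexus-like level. The highest class was the same in both libraries for 34 of 70 members and for 9946 of 20146 genes, a like share. The count in the nuclei depended on the settings, with 19 above 3000 transcripts, 18 at resolution 0.5 and 2 at a fold of 3. The 12.1% of all genes is that of the main setting, so these counts are not set against it.

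Choroid plexus-like barcodes combined PCDH7, CDH6 and CDH11 with CDH12. PCDH7 (ENSG00000169851, plus strand of chr4:30720369-31146805) stood at 3.08 (2.96 to 3.20) against at most 1.38 in the other 4 classes of the nuclei and at 2.29 (2.22 to 2.37) against at most 0.699 in the cells. It was above both the progenitor-like and the neuron-like level in 12 of 12 wells of the nuclei, where it ran from 1.62 over 3.06 to 5.45, and in 8 of 8 wells of the cells. Of the 48 wells of the cells, only these 8 held at least 20 barcodes each of the progenitor-like, neuron-like and choroid plexus-like classes. The other wells were left out. CDH6 (ENSG00000113361, plus strand of chr5:31193686-31329146) stood at 0.871 against at most 0.405 in the nuclei and at 0.8995 against at most 0.331 in the cells, above both in 11 of 12 and 7 of 8 wells. CDH11 was at 1.11 in choroid plexus-like nuclei and 1.05 in cells, above both in 12 of 12 and 8 of 8 wells, but Cajal-Retzius-like nuclei came close at 0.944. After thinning to 1000 transcripts, PCDH7 was detected in 22.8% of choroid plexus-like nuclei and 2.21% of progenitor-like nuclei, and in 61.7% and 6.66% without thinning. CDH4, CDH7, CDH8, CDH20 and PCDH9 were lower in this class than in all other nuclei pooled, though CDH7 (0.156) was above and PCDH9 (1.71) close to the progenitor-like level. The class also carried the ciliated cell markers, at 10.3 counts per 10000 against 0.236 to 0.414 in the other classes. The cortical hem markers stood at 9.55 there against 0.496 to 0.710 in progenitor-like, IPC-like and neuron-like nuclei and 8.89 in Cajal-Retzius-like nuclei, and at 10.8 against 0.829 to 2.10 in the other classes of the cells. Markers of mesenchyme (1.62 against at most 0.0378), pigment and retinal cells (4.12 against at most 0.797), the oligodendrocyte lineage (1.01 against at most 0.0428) and endothelium (0.426 against at most 0.0289) were raised there too. The part of these lists in the levels was not tested.

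Cajal-Retzius-like nuclei, the early reelin-producing neurons, combined high PCDH9, CDH13, CDH18 and PCDH10 with the CDH4 and PCDH11X of progenitors. CDH13 stood at 3.68 (3.20 to 4.198) against at most 1.13 in the other 4 classes, CDH18 at 2.77 (2.36 to 3.22) against at most 0.971, and PCDH10 at 0.455 (0.300 to 0.662) against at most 0.0591, the last from 27 counts. Unnamed clusters described below exceeded the first 2 values, with CDH13 at 5.51 and CDH18 at 5.09, and 1 of them came close in PCDH10, at 0.407. The cortical hem markers were also raised in Cajal-Retzius-like nuclei, at 8.89 counts per 10000 below the 9.55 of choroid plexus-like nuclei given above, and their part in these levels was not tested. Of CDH13, CDH18 and PCDH10, none was 2-fold above the next class in the Cajal-Retzius-like cells, which carried progenitor markers at the level given above. The class rests on 102 nuclei.

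Between single clusters the combinations were sharper. The 2 neuron-like clusters of the nuclei, both with all 8 excitatory neuron markers raised, differed in CDH7 (1.05, 0.952 to 1.15, against 0.0731, 0.0477 to 0.107), in CDH13 (1.96 against 0.107) and in PCDH1 (0.374 against 0.138), while CDH3 was alike (0.376 and 0.349). The first, led by SLC24A2, SLA and CLMP, thus carried CDH7 and CDH13. The second, led by PRDM8, DISP3 and EYS, held CDH11 at 0.708, CDH24 at 0.231 and PCDHB9 at 0.219. With both clusters pooled these genes stood at 0.501, 0.1925 and 0.184, so they set the 2 clusters apart less than CDH7 and CDH13 did. Another cluster of 818 nuclei, which raised the same 8 markers but stayed unnamed under the naming rule, had CDH7 at 3.13, CDH13 at 5.51 and PCDH15 at 3.02, that is 14.99-fold, 10.5-fold and 5.89-fold the rest of the nuclei. CDH9 and CDH1 were also highest there, at 0.239 and 0.129, while CDH11 was at 0.152 and CDH4 at 3.07. CDH7 was itself among the 5 leading genes of that cluster, which was built without it.

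2 further unnamed clusters of the nuclei were set apart by PCDH9. A cluster of 712 nuclei led by NXPH1, GFRA1 and EBF1 held PCDH9 at 18.0, CDH18 at 5.09, PCDH7 at 3.34, PCDH15 at 2.24, CDH10 at 0.987, CDH8 at 0.942, CDH11 at 0.807, PCDH10 at 0.407 and CDH22 at 0.311, each at least 2-fold above the rest. A cluster of 695 nuclei led by EBF2, PLXNA4 and CNTN2 held more PCDH9, 25.3, but CDH18 at 0.322 and CDH12 at 1.07, and it raised PCDHGA2 (3.91), PCDHGB6 (0.301) and PCDHA5 (0.177). The hem-like clusters, named for the cortical hem, a signalling centre at the margin of the cortex, shared PCDH7 (4.62 and 3.59) and CDH11 (2.08 and 1.16) with the choroid plexus-like nuclei. Only the second of them, of 216 nuclei, carried CDH6 (1.17 against 0.306) and CDH20 (4.56).

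Progenitor clusters differed in the same way by degree. CDH20 was highest among them in the mitotic cluster, at 3.29 against 1.23 in the rest of the nuclei, and PCDH18 was at 0.319 and PCDH17 at 0.506 in a radial glia-like cluster led by EGR1 and FOS, immediate-early genes of stimulated cells, with 48.9% of its nuclei from 1 well. PCDH11X reached 6.61 in another radial glia-like cluster, with 48.8% from 1 well, and 7.48 in a glycolytic cluster. An unnamed cluster of 792 nuclei, of which 58.5% came from 1 well, held CDH12 at 14.2 and CDH10 at 0.860. In the cells, an unnamed cluster of 293 barcodes, outside the progenitor-like class, was led by BMP3, PAX3 and DCT. It raised 6 of 8 cortical hem markers, with the pigment and retinal cell list next. This cluster held CDH18 at 9.05, CDH6 at 4.27, PCDH7 at 2.97 and CDH11 at 1.56. These were 17.8-fold, 17.4-fold, 4.61-fold and 5.19-fold the rest of the cells, and 62.8% of the cluster came from 1 well.

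**Figure D3:**
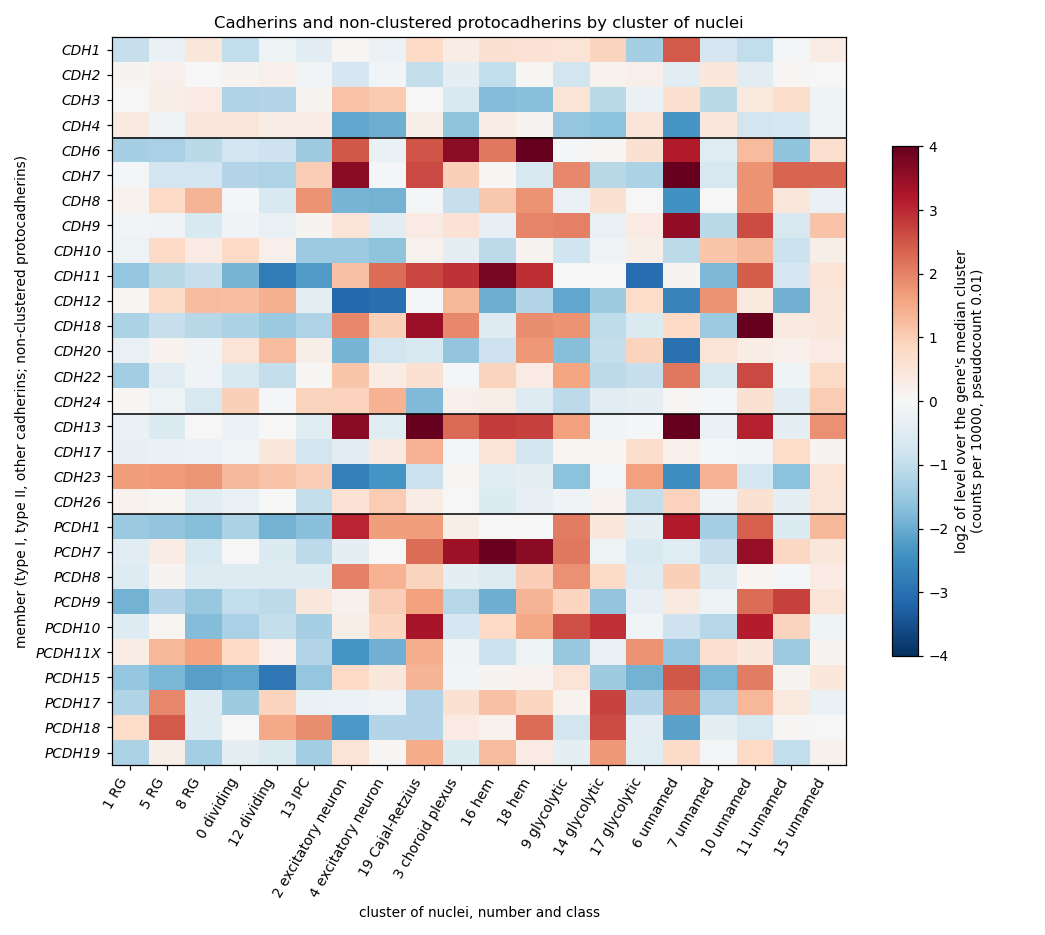
Log2 of the level of 29 cadherins and non-clustered protocadherins (rows, grouped by black lines into type I, type II, other cadherins and non-clustered protocadherins) in the 20 clusters of nuclei (columns), relative to the median cluster of each gene, with a pseudocount of 0.01 counts per 10000 and colours limited at 4. The neuron-like columns are blue for CDH4, CDH12 and CDH23 and cluster 6 is red for CDH7, CDH13 and CDH9, while the choroid plexus-like and hem-like columns are red for CDH11 and PCDH7.

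The clustered protocadherins lie together on chromosome 5, the PCDHA genes from position 140786136 to 141012347, the PCDHB genes from 141051374 to 141249365 and the PCDHG genes from 141330514 to 141512977, all on the plus strand. Every one of the 16 PCDHB genes is a single exon, whereas 15 of 16 PCDHA genes end at 141012347 and 21 of 22 PCDHG genes at 141512975, where the shared constant exons lie. Reads from those exons cannot be told apart by isoform. In the PCDHA cluster, PCDHA6 took 68.9% of the counts in the cells and 74.6% in the nuclei, and in the PCDHG cluster PCDHGA2 took 73.9% and 75.1%. Each has the lowest Ensembl number of the 16 and 22 genes of its cluster, and its share hardly moved between classes, from 67.0 to 69.4% and from 71.5 to 74.8% in the cells and from 73.9 to 78.3% and from 73.9 to 77.6% in the nuclei. PCDHA6 (plus strand of chr5:140827958-141012347) and PCDHGA2 (plus strand of chr5:141338760-141512975) are read here as the sum of reads that the counting assigned to them, not as isoforms. Isoform counts leave them out. Whether reads of the shared exons make up these counts was not tested.

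All 13 PCDHA and all 14 PCDHB genes with enough counts were higher in neuron-like than in progenitor-like barcodes in both libraries, as were 9 of 14 PCDHG genes, against 35.0% of all genes. In both libraries the counting interval of the ratio lay above 1 for 10 of 13, 10 of 14 and 6 of 14 genes. The share of all genes with such intervals was not computed, and the 35.0% is for direction only. The counts assigned to PCDHA6 went from 1.38 (1.34 to 1.43) to 3.37 (3.25 to 3.50) in the nuclei, with well ranges of 1.17 to 1.85 and 2.74 to 4.07 that did not overlap, and from 1.22 to 2.22 in the cells. PCDHGA2 went from 1.47 to 2.72 and from 1.60 to 2.37, higher in neurons in 12 of 12 and 21 of 22 wells. Without these 2 genes, the sums of the nuclei went from 0.477 (0.449 to 0.506) to 1.06 (0.989 to 1.13) for PCDHA, from 0.609 (0.577 to 0.642) to 1.27 (1.20 to 1.35) for PCDHB and from 0.482 (0.454 to 0.511) to 0.788 (0.727 to 0.852) for PCDHG. Choroid plexus-like nuclei were lowest for PCDHB and PCDHG, at 0.384 and 0.364. The neuron-like level was therefore higher than the progenitor-like level also without the genes that took most counts of their arrays. For PCDHG without PCDHGA2 the IPC-like class was higher still, at 0.940 in the nuclei and 1.24 against 0.813 in the cells. PCDHB was also higher in IPC-like than in neuron-like cells, at 1.36 (1.29 to 1.44) against 1.18 (1.14 to 1.23). In the nuclei PCDHB was lower in the IPC-like class, at 0.970. PCDHA without PCDHA6 was close in the cells, at 1.11 in IPC-like and 1.08 in neuron-like barcodes.

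**Figure D4:**
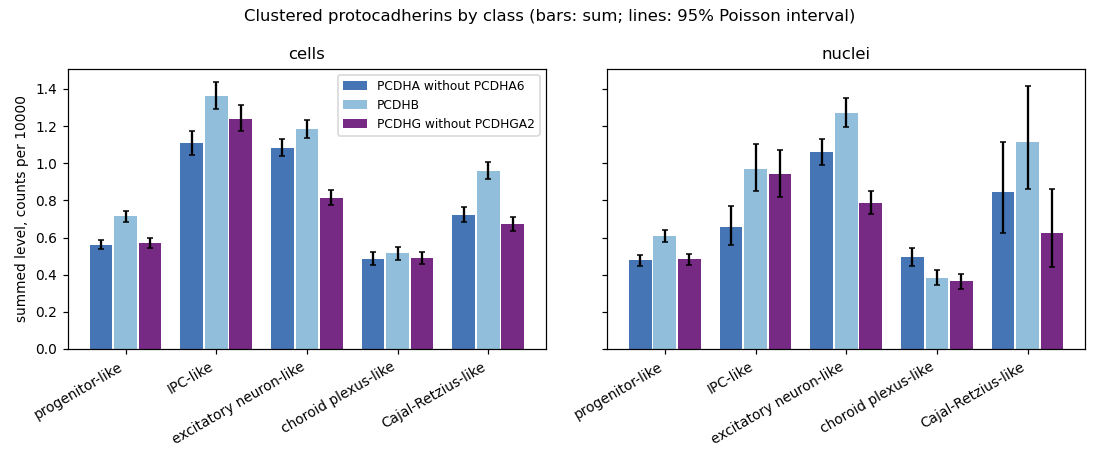
Summed level in counts per 10000 of the PCDHA genes without PCDHA6, the PCDHB genes and the PCDHG genes without PCDHGA2 in 5 classes of cells (left) and nuclei (right), with 95% exact Poisson intervals as vertical lines. In both libraries every array is higher in excitatory neuron-like than in progenitor-like barcodes and lowest or near lowest in choroid plexus-like barcodes.

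Of the single isoforms, PCDHB2, PCDHB9 and PCDHB16 were the most abundant PCDHB genes, with 866, 748 and 597 counts in the nuclei. PCDHB9 stood at 0.0695 in progenitor-like and 0.184 in neuron-like nuclei, higher in neurons in 12 of 12 wells, PCDHB2 at 0.113 and 0.180, and PCDHB16 at 0.0651 and 0.123. PCDHA10 stood at 0.166 and 0.352, PCDHA9 at 0.0734 and 0.160, PCDHGB6 at 0.0985 and 0.200 and PCDHGA12 at 0.0695 and 0.127. The genes PCDHB9 to PCDHB14 lie side by side and each was at least 2-fold higher in neurons in both libraries, with ratios of 2.08 to 3.15 in the nuclei and 2.01 to 2.73 in the cells. PCDHB9 and PCDHB10 were at the threshold in the cells, at 2.01 (1.73 to 2.35) and 2.02 (1.58 to 2.57), and of these 6 genes all but PCDHB13 lost the call in both libraries together under 5 to 7 of the 11 alternatives.

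The C-type isoforms, which lie nearest the constant exons and of which several are made in most neurons, did not move together. PCDHAC1 went from 0.0229 (0.0171 to 0.0300) to 0.0742 (0.0565 to 0.0958) in the nuclei and from 0.0159 to 0.0531 in the cells. PCDHAC2 stood at 0.00923 and 0.0101 in the nuclei, PCDHGC3 at 0.0374 and 0.0352, PCDHGC4 at 0.0167 and 0.0239 and PCDHGC5 at 0.0145 and 0.0176, with intervals that overlapped. Of the 5 C-type genes, PCDHAC1 alone had intervals that did not overlap in the nuclei.

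Isoforms were counted per barcode, and barcodes below 5000 transcripts were left out. After thinning to 5000 transcripts, and over 52 isoforms without PCDHA6 and PCDHGA2, a neuron-like nucleus held 1.44 ± 1.31 isoforms (SD over 568 nuclei) and a progenitor-like nucleus 0.703 ± 0.897 (1696 nuclei). IPC-like, Cajal-Retzius-like and choroid plexus-like nuclei held 1.15, 1.25 and 0.547. In the cells the means were 1.41 in neuron-like, 0.828 in progenitor-like and 1.75 in IPC-like barcodes. At least 2 isoforms were seen in 40.3% of neuron-like and 16.5% of progenitor-like nuclei, and at most 7 in any nucleus. The same nuclei held on average 1.53 and 0.738 transcripts of these isoforms, so the number of isoforms was nearly the number of transcripts sampled and does not show how many a nucleus uses. Such numbers rise with depth, and background RNA and doublets can add to them.

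Where a barcode held at least 2 counts of an array, pairs of counts fell on the same isoform more often than in the class as a whole. In neuron-like nuclei 15.8% of 576 pairs of PCDHB counts were of the same isoform, against 9.05% for counts pooled over the class, and in progenitor-like nuclei 18.2% of 406 pairs against 9.45%. For PCDHA the shares were 25.1% against 17.3% in neuron-like and 28.5% against 17.9% in progenitor-like nuclei, and for PCDHG 18.4% against 14.1% and 20.3% against 10.9%. The ratio ran from 1.31 to 1.93 over these 6 comparisons and from 1.40 to 1.92 in the cells. An RNA primed at more than 1 site would also give such pairs, and its part was not tested.

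Most promoters of the clustered genes are known to carry a conserved element with CGCT at its core, near a site bound by CTCF, the factor that loops the chosen promoter to distant enhancers. Promoter sequences of GRCh38.p14 from RefSeq were matched by symbol to 47 of the 54 clustered genes, and the letters CGCT were searched in the 100 bases before the start, a motif and window chosen after the levels were known. On the strand of the gene, 44 of 47 promoters (93.6%) held them, 12 of 13 for PCDHA, 13 of 14 for PCDHB and 19 of 20 for PCDHG, against 11 of 22 (50%) other members and 32.2% of 27305 genes. On either strand the shares were 93.6%, 77.3% and 48.8%. The 58 sites lay 8 to 95 bases before the start, with a median of 52.5. The following windows of 30 bases are shown because they hold these letters in genes with many counts of each array and in some C-type genes. The counts of PCDHA6 and PCDHGA2 are those assigned by the counting, as stated above. Windows are given 5′ to 3′ on the plus strand, with CGCT in capitals.
PCDHA6 (chr5:140827897-140827926): tggagccgcatgatgtCGCTgtctaccatg
PCDHA10 (chr5:140855841-140855870): taaagccaccggatgtCGCTgtcgtccaca
PCDHAC1 (chr5:140926220-140926249): gcctagaaggtgtggtCGCTcacgttcacc
PCDHAC2 (chr5:140966419-140966448): tgctgagccctcctacCGCTccctttcccc
PCDHB2 (chr5:141094544-141094573): aagagacgcggggtggCGCTgcagccttag
PCDHB9 (chr5:141187074-141187103): ggaagccacaaggtggCGCTgcagactgaa
PCDHB16 (chr5:141182310-141182339): tgagaacgcgtggtggCGCTgcaggttaag
PCDHGA2 (chr5:141338703-141338732): ttaggcctctgagcgtCGCTgttgaccacc
PCDHGB6 (chr5:141407948-141407977): gccagtgcagagcaagCGCTgacgccgggg
PCDHGC4 (chr5:141484952-141484981): ggctgagcccgggagcCGCTgtctgccaat
The windows of PCDHB2, PCDHB9 and PCDHB16 share letters on both sides of the core. A match of 4 letters describes the sequence and is no measure of factor binding. It also does not show that a window, such as those of the C-type genes, holds the conserved element, which was not tested.

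A list of 50 partners and relatives of the family was read in the same way. Class-specific were 3 of 49 in the cells (9.88% of all genes) and 4 of 46 in the nuclei (12.1% of all genes), shares below those of all genes. CLSTN2 (a calsyntenin, at 7.67 in choroid plexus-like against at most 3.31 in the other classes of the nuclei), PTK2B (1.60 against at most 0.270) and CDHR4 (0.0523 against at most 0.00220) held for the choroid plexus-like class in both libraries. Hem-like, glycolytic and unnamed clusters lay outside that comparison. At least 2-fold higher in neurons were 5 genes in the cells and 10 in the nuclei (9.58% and 11.9% of all genes), and in progenitors 7 and 8 (9.45% and 17.8% of all genes). Among the catenins, CTNNA2, the neural alpha-catenin, went from 1.80 in progenitor-like to 27.4 in neuron-like nuclei and from 3.45 to 16.4 in cells, while CTNNA1, the epithelial alpha-catenin, went from 2.20 to 0.672 and from 2.31 to 0.957. CTNNB1 (beta-catenin) differed by less than 2-fold, at 1.87 and 1.52 in the nuclei. CELSR1, a planar polarity cadherin, stood at 5.81 in progenitor-like and 0.276 in neuron-like nuclei, and its relative CELSR3 at 0.154 and 0.749. Of the 10 genes for processing and promoter choice, including CTCF (1.24 and 0.887) and SMCHD1 (3.09 and 1.93), only the cohesin gene RAD21 passed 2-fold, at 1.11 and 0.474 in the nuclei. The genes of this list other than CLSTN2, PTK2B and CDHR4 were chosen for mention after their values were seen.

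Levels in nuclei and cells were close for most members. Of 70 members, CDH4 was more than 2-fold higher in the nuclei (0.581% of all genes), at 12.7 against 5.99, and PCDH8, CDH17 and CDH1 were more than 2-fold higher in the cells (15.7% of all genes), PCDH8 at 0.0371 against 0.00956. CDH12 and PCDH11X were at 1.66 and 1.87 times their level in the cells, short of 2-fold. The median nuclei to cells ratio was 0.992 over the members and 0.824 over 20146 genes, a shift of the median gene by -0.28 on the log2 scale. The libraries also differ in days, conditions and preparation, which cannot be told apart.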

How the data were processed

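Per the labels and the study's methods, the authors split the reads into 8 sub-libraries of cells and 2 of nuclei by barcode, ran the Parse pipeline against GRCh38, and deposited whole-number transcript counts per gene and barcode, with a table of barcodes that names 1 sample per library. From these counts, barcodes were filtered as stated, and clustered with scanpy 1.11.5 (Python 3.11.15) on 2000 variable genes without the cadherin superfamily, 30 principal components, 15 neighbours and Leiden resolution 1. A cluster was named where at least 3 markers of a list, and more than 50% of the list, were at least 1.5-fold raised and detected in at least 10% of its barcodes. The mean log2 fold of the list also had to be at least 0.5. A name was withheld where the leading genes went against it, or where depth was low and no leading gene was a marker of the class. Scrublet marked no barcode in either library, so doublets were not removed by it, and the barcodes with the highest scores (5% of cells, 3% of nuclei) were left out as an alternative. Folds were read for members with at least 50 counts in a library, and a class-specific member also needed 10 counts in its highest class, with a floor of 3 counts for the others. Intervals are exact Poisson or exact binomial at 95%. With 1 sample per library, no test was run. Gene positions are from the GENCODE annotation of GRCh38. The functions were tested on simulated data.

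The members and gene lists were chosen with earlier results of these data known. Named by rule were the 10 cadherins and non-clustered protocadherins with most counts in either library (CDH2, CDH4, CDH12, CDH13, CDH18, CDH20, CDH23, PCDH7, PCDH9, PCDH11X, PCDH15), the members class-specific in both libraries, the 3 most abundant genes of each clustered array, the C-type genes, and list genes class-specific in both. CDH1, CDH3, CDH6 in neurons, CDH7, CDH8, CDH9, CDH10, CDH11, CDH15, CDH17, CDH22, CDH24, PCDH1, PCDH8, PCDH10, PCDH17, PCDH18, PCDH19, PCDH20, PCDHA5, PCDHA12, PCDHA13, PCDHA14 and PCDHB10 to PCDHB14 were chosen after their values were seen.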

Additional observations from a re-analysis of the deposited data

Results flagged for a closer look

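PCDH17 was singled out because its direction differed between the libraries. The neuron-like over progenitor-like ratio was 1.871 in the cells and 0.5519 in the nuclei, with 95% counting intervals of 1.66 to 2.12 and 0.433 to 0.697, and the difference between the libraries was not tested. In the nuclei the log2 ratio was positive under 4 alternatives, at 0.34 with at most 10% mitochondrial transcripts, 0.35 above 3000 transcripts, 0.91 at resolution 0.5 and 0.50 with the superfamily kept among the variable genes.

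Barcodes of 10 to 100 transcripts also held members. They were used only as the profile of background RNA, for its share of each class and for the alternative with TTR-traced background taken out. All members together stood there at 34.28 counts per 10000 in the cells and 47.07 in the nuclei, against 33.6 and 48.9 in the kept barcodes.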

How the results depend on the processing

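No paired analysis was possible because no test was run and barcodes carry no replicate number, and levels of both classes within a well are given only as a description. Log2 ratios under the alternatives were listed for CDH2, CDH3, CDH4, CDH6, CDH7, CDH11, CDH12, CDH13, CDH18, CDH20, CDH23, PCDH1, PCDH7, PCDH9, PCDH11X, PCDH15, PCDH17, PCDHA6, PCDHB9 and PCDHGA2. For the other members only calls, past 2-fold or class-specific, were followed under the alternatives. Of the 427 log2 ratios of the listed genes, 386 kept their side of 1 and of the 2-fold threshold, 28 kept their side of 1 but fell short of 2-fold, 9 passed it, and 4, all of PCDH17 in the nuclei, lay on the other side of 1. CDH13 in the nuclei ran from 0.18 to 6.80. Among listed genes reported as at least 2-fold higher in neuron-like cells, the lowest log2 ratios there were 0.83 for CDH3, 0.68 for CDH18, 0.66 for PCDH15 and 0.57 for PCDHB9. Among those reported as at least 2-fold higher in progenitor-like cells, the ratios nearest 0 were -0.46 for PCDH11X and -0.98 for CDH12. Listed genes short of 2-fold in the cells reached 0.17 for PCDH17, 0.20 for PCDH9, 0.39 for PCDHGA2 and 0.70 for PCDHA6. On the progenitor side such genes reached -0.26 for PCDH7 and -0.45 for CDH2. In the nuclei PCDH9, past 2-fold as reported, went down to 0.965. For each count that moved by over 1.5 times, the cause was not tested. Counts under alternatives are given here without a share of all genes and are not read as results about the members.

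Members at least 2-fold higher in neuron-like cells, 23 as reported, were 11 without the highest Scrublet scores, 14 with at most 10% mitochondrial transcripts, 12 at resolution 0.5, 15 at resolution 2 and 46 with TTR-traced background taken out, which also gave 11 in place of 7 in progenitor-like cells and 6 in place of 3 class-specific list genes in the cells. Members at least 2-fold higher in neurons in both libraries, 19 as reported, were 10, 12, 10, 11 and 12 without the highest Scrublet scores, with at most 10% mitochondrial transcripts, at resolution 0.5, at resolution 2 and with the superfamily kept, and the 7 of progenitors were 4 above 3000 transcripts. Class-specific members of the nuclei, 9 as reported, were 19 above 3000 transcripts, 18 at resolution 0.5, 15 at a fold of 1.5, 2 at a fold of 3 and 15 without the Cajal-Retzius-like class. Those of the cells, also 9, were 14 as means over barcodes, 20 at a fold of 1.5 and 3 at a fold of 3. Those in both libraries, 2 as reported, were 5 at resolution 0.5, 5 with the superfamily kept, 5 at a fold of 1.5, 0 at a fold of 3 and 7 without the Cajal-Retzius-like class. Class-specific list genes of the nuclei were 7 in place of 4 at resolution 0.5. Members higher in the nuclei than in the cells were 3 in place of 1 when centred on the median gene, and at a fold of 4 they were 0, as were those higher in the cells.

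Isoforms per barcode followed depth by construction. Thinning left out barcodes below the set number of transcripts, so values at different settings rest on different barcodes. Thinned to 2000, thinned to 10000 and with all isoforms counted, the means were 0.582, 2.70 and 2.65 in neuron-like cells, 0.370, 1.58 and 1.69 in progenitor-like cells, 0.595, 2.48 and 2.82 in neuron-like nuclei, and 0.314, 1.27 and 1.55 in progenitor-like nuclei. Thinned to 3000 and without thinning, CDH4 was detected in 86.8% and 79.6% of progenitor-like and 45.4% and 64.1% of neuron-like cells, and in 96.9% and 95.6% of progenitor-like and 52.4% and 60.4% of neuron-like nuclei. CDH12 was detected in 55.2% and 54.8% of progenitor-like and 18.4% and 36.4% of neuron-like cells, and in 65.7% and 63.1% of progenitor-like and 9.06% and 13.8% of neuron-like nuclei.

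Leaving out the Cajal-Retzius-like class, counting all isoforms, keeping radial glia-like and dividing barcodes apart, leaving out barcodes above 50000 transcripts and leaving out well combinations found in more than 1 sub-library were chosen after seeing the data. The last gave 28 and 9 members past 2-fold in neuron-like and progenitor-like cells and 32 and 8 in the nuclei. The share of all genes past 2-fold was not computed under this alternative.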
